A study of Mus musculus with 103 samples.

Results

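The cells described here are mouse prostate cells sorted for the surface protein Prominin-1 (CD133, gene Prom1), set against cells sorted the same way from the other organs of the same series. All sorted samples labelled with prostate as their source were taken, which gave 3 of the 103 samples. The reference was the mean of the group means, each organ with the same weight, of kidney (4 samples), liver (5), lung (4), salivary gland (3), small intestine (3), stomach (2) and uterus (4), 25 samples in all. According to the labels every one of these 28 samples held primary normal cells: tissue was dissociated, red cells were lysed, dead cells were removed, cells were captured on magnetic beads carrying an antibody to Prominin-1, and RNA was hybridised to Affymetrix mouse arrays. The labels give no treatment for these groups, and no age, strain, genotype or sex. No label says whether the replicates of an organ are different animals, and a p-value here therefore describes a spread among samples that could be technical. That spread was estimated over all 40 sorted samples of the series, which also include liver cells labelled DDC-treated and neonatal liver cells. It is shared by all groups, so it can be smaller than the spread among the 3 prostate samples. The labels do not name a prostate lobe either, or say how purely the beads captured the cells.

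The prostate is an exocrine gland whose luminal cells secrete proteins into the seminal fluid under the control of androgens. Androgen receptor acts there together with the pioneer factor FOXA1, GATA factors and the homeobox protein HOXB13, and the luminal cells lie on a layer of basal cells. In rodents the seminal vesicles, which open beside the prostate, secrete the proteins that prostate transglutaminase cross-links into the copulatory plug. Prominin-1 is a membrane glycoprotein of protrusions on the cell surface, and is used to enrich epithelial stem or progenitor cells as well as mature glandular cells.

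Levels below are the deposited log2 values of 1 probe set per gene, and a difference is the prostate mean minus the mean of the other 7 organs on the same scale, with its standard error (SE). A gene was called higher or lower where limma's Benjamini-Hochberg adjusted p was under 0.05 and the difference was at least 1. Where the other organs lie near or under the filter value of 4.063, a difference is a lower bound. Of 13113 genes tested, 1362 were higher in prostate cells (10.4%) and 956 were lower (7.29%), while the median difference of all genes was 0.036. Counts of list members below are to be read beside these shares. In 406 genes (3.1%) all 3 prostate samples lay above all 25 others and in 19 (0.145%) all 3 lay below. With only the samples whose title number was 250 or below, the median difference of all genes was 0.147. The reference in that setting is liver, lung and a small intestine group of 1 sample. Array medians ran from 3.85 to 4.24 over the 28 samples and from 3.89 to 3.95 in prostate. The actin probe sets compare the 3' and 5' ends of the transcript, and differed by 0.91 to 1.14 in prostate and by 0.41 to 1.80 elsewhere. Those of Gapdh differed by 0.98 to 1.09 in prostate and by 0.77 to 1.39 in kidney, liver and lung. They differed by at most 0.52 in salivary gland, 0.63 in small intestine, 0.73 in stomach and 0.88 in uterus. The part of RNA quality in the differences below was not tested.

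Prom1 itself stood at 10.44, 9.81 and 10.68 in prostate samples 1, 2 and 3, a mean of 10.31 ± 0.45 (SD, n = 3). The organ means were 11.99 in stomach, 11.54 in uterus, 10.76 in kidney, 10.55 in salivary gland, 9.33 in small intestine, 6.36 in lung and 3.45 in liver. Against the 7 together the difference was 1.17 ± 0.73 (SE; limma adjusted p = 0.244), so the sorted gene did not pass the test. It passed with only the 28 untreated samples in the fit (adjusted p = 0.0124) and against the samples of title number 250 or below (4.37, adjusted p = 0.00217), and without liver and lung in the reference the difference was -0.52. It was higher than in liver by 6.86 ± 0.87 (adjusted p = 5.69e-08) and higher than in lung by 3.95 ± 0.91 (adjusted p = 0.000832). In liver and lung cells, then, the array does not show the marker of the sort at the level of the other organs. As a check of sex under the prostate and uterus labels, Eif2s3y, a gene of the Y chromosome, stood at 8.09, 8.30 and 8.30 in prostate. Its mean in uterus was 2.68. Xist, the RNA that silences an X chromosome in females, stood at 4.05, 3.74 and 3.24 in prostate and at a mean of 11.61 in uterus. Its call as lower than the mean of the other organs was lost without stomach or without uterus in the reference. It was also lost without any 1 of the prostate samples. Sex is not in the labels of the other organs, and the part of sex in the differences below was not tested.

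The DNA just upstream of Pbsn and of 5 of the 6 measured Svs genes is shown first. Pbsn is the best known secreted gene of the prostate, and the Svs genes lie side by side and include 2 pairs whose upstream sequences are near copies. Each line gives the 250 bases before the transcript start from RefSeq (build GRCm38.p6), 5′ to 3′ on the gene's own strand. Capitals mark the half-site of an androgen response element (AGAACA, or its reverse complement TGTTCT), a forkhead motif (TGTTTAC) and a TATA box (TATAAA). Pbsn encodes probasin, the secreted prostate protein whose promoter drives many prostate transgenes, and the Svs genes encode seminal vesicle secretory proteins.
Pbsn (chrX:77853501-77853750, minus strand): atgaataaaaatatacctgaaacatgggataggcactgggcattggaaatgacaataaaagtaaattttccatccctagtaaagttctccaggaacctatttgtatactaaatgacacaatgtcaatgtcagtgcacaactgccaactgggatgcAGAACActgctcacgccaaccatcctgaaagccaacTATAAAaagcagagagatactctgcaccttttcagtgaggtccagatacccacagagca
Svs4 (chr2:164278308-164278557, minus strand): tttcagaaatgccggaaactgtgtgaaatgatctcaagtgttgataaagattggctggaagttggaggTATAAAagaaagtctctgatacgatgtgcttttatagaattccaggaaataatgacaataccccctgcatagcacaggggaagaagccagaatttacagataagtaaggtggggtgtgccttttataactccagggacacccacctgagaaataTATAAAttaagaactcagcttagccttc
Svs5 (chr2:164332515-164332764, plus strand): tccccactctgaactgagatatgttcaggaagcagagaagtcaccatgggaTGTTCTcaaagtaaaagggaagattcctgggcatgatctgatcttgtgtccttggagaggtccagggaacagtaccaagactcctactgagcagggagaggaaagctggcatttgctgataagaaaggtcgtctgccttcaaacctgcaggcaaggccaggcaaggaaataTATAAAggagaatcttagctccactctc
Svs6 (chr2:164316501-164316750, plus strand): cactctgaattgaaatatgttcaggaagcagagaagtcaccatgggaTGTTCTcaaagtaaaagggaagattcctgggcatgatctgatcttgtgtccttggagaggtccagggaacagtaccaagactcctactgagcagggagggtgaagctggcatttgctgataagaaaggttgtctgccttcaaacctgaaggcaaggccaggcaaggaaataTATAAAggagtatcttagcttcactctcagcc
Svs3a (chr2:164289017-164289266, plus strand): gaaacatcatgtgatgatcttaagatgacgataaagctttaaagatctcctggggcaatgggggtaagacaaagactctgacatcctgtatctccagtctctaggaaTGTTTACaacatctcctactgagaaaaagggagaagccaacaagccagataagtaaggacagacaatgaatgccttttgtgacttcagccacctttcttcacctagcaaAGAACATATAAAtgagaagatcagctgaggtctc
Svs3b (chr2:164256644-164256893, minus strand): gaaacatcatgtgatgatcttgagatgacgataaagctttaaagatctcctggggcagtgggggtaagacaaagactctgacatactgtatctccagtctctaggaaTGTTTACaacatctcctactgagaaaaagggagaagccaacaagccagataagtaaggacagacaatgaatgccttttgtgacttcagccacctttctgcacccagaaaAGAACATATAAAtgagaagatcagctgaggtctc

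In these windows the Pbsn half-site lies 95 to 90 bases before the start and its TATA box at 59 to 54. The TATA box nearest to the start lies at 28 to 23 in Svs4, Svs5, Svs3a and Svs3b and at 32 to 27 in Svs6. Svs3a and Svs3b match each other at 244 of 250 bases (97.6%), down to the forkhead motif at 143 to 137 and the half-site at 34 to 29. Svs5 and Svs6 are near copies as well: with 1 window shifted by 4 bases they match at 96.3% of the bases compared, and both hold the half-site. The next closest pair among the 7 promoters compared, with shifts of up to 30 bases, was Svs4 and Svs5, which match at 98 of 250 bases (39.2%). Of 18 genes of prostate or seminal vesicle secretion on the array, 14 had a promoter in the table. A gene was counted where any of its windows held the motif, while the shares of all promoters are per window. The near copies Svs3a and Svs3b, and likewise Svs5 and Svs6, count as separate genes. TATAAA on the gene strand occurred in 8 of these 14 and in 7.59% of all 32851 promoters. The half-site on either strand occurred in 8 of 14 (Ceacam10, Pbsn, Sbp, Sva, Svs3a, Svs3b, Svs5 and Svs6) and in 16.1% of all promoters, and it also matches inside a full element. The forkhead motif on either strand occurred in 2 of 14 and in 3.17% of all. The full palindromic androgen response element, both half-sites with a 3-base spacer, was found in 3 of the 32851 windows, and not in these 14. A match is a description of the letters and not a sign of binding.

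The proteins that the prostate secretes into semen gave some of the largest differences. Of 9 tested genes of this list 8 were higher in prostate cells, and the median difference of the list was 6.66. Msmb, Sbp and Tgm4 passed the filter through prostate alone. Their highest means in another organ were 3.41, 3.85 and 4.02, so the filter partly fixed their part of the count. Pbsn stood at 13.55, 13.43 and 13.13 in the 3 prostate samples and between 2.45 and 7.58 in the other 25, a difference of 10.40 ± 0.43 (SE; limma adjusted p = 1.99e-20). Sbp, which encodes the spermine-binding protein, stood at 13.27, 13.54 and 13.14 against at most 5.92 elsewhere, a difference of 10.24 ± 0.31. For both genes the groups were far apart, and the highest of the 25 was lung sample 2. Msmb, the gene of beta-microseminoprotein, stood at 13.13, 13.38 and 12.81 against at most 4.36 (10.14 ± 0.19, adjusted p = 2.51e-31). Tgm4, the prostate transglutaminase that cross-links the plug, stood at 13.05, 12.94 and 12.78 against at most 6.02, again in lung sample 2 (9.43 ± 0.30). These 4 genes varied by less than 1 unit among the 3 prostate samples.

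Several other members of the list were also high in a second organ. Spink1, a trypsin inhibitor, stood at 13.26, 13.25 and 12.83 in prostate and at a mean of 12.15 in kidney and 10.62 in small intestine, with a difference of 6.66 ± 0.90. Apof, an apolipoprotein, stood at 9.66, 10.55 and 9.74 and was higher still in liver, at a mean of 11.65 (difference from all organs 5.31 ± 0.41). Azgp1, the zinc-binding alpha-2-glycoprotein, stood at 10.34, 11.60 and 10.81, between a mean of 12.31 in liver and 10.02 in salivary gland (3.80 ± 0.42). So all 3 genes were called higher than the average organ while liver or kidney cells lay near or above them. Mme, which encodes the membrane protease neprilysin, stood at 6.15, 8.62 and 6.71 and overlapped the others (2.42 ± 0.48, adjusted p = 0.00017). That call was lost against the samples of title number 250 or below. Acpp, the gene of prostatic acid phosphatase, stood at 5.94, 5.88 and 6.50, a difference of -0.48 ± 0.35 (adjusted p = 0.336).

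**Figure D1:**
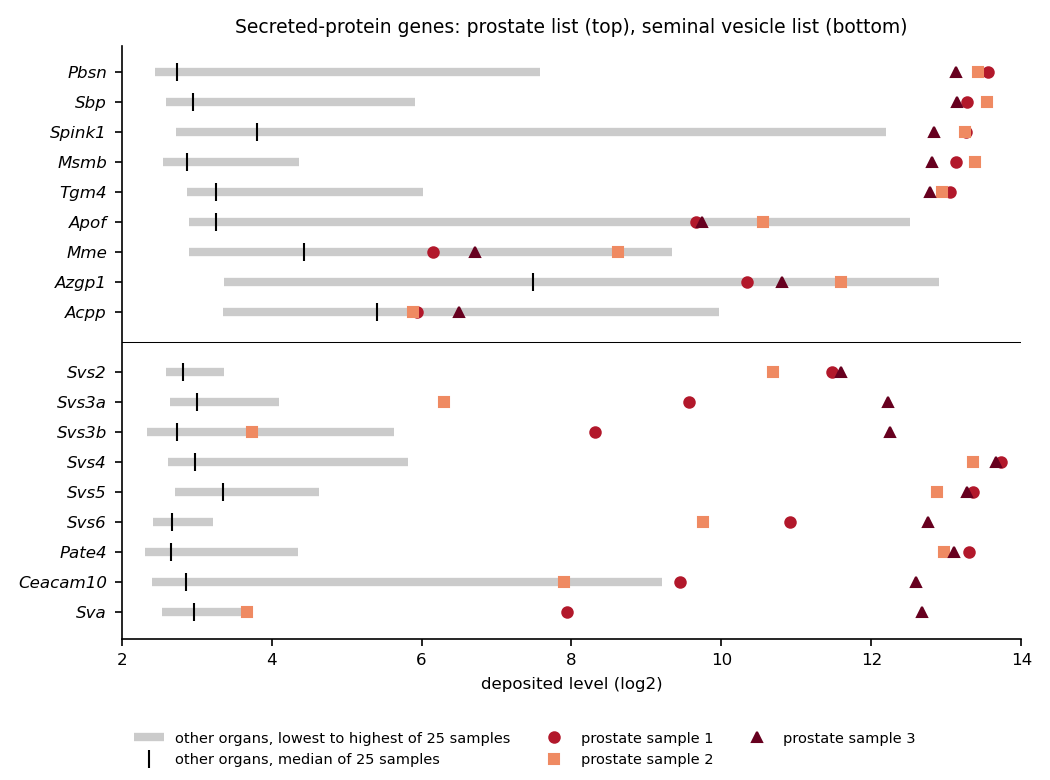
Log2 level of the genes of prostate and seminal vesicle secretion: symbols show the 3 prostate samples, grey bars the lowest to highest of the 25 samples of other organs, and ticks their median. The prostate points of Pbsn, Sbp, Msmb, Tgm4, Svs4, Svs5 and Pate4 lie close together near the top, while those of Sva and Svs3b run from the level of the other organs (3.67 and 3.73) to above 12.

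Seminal vesicle secretory genes were high in the same cells. All 9 tested members were called higher, with a median difference of 8.37, and the same 9 were called without each prostate sample in turn. Svs4 stood at 13.73, 13.35 and 13.66 against at most 5.82 in the 25 others (10.43 ± 0.32, adjusted p = 1.6e-24). Pate4, a small secreted protein of the Ly6 family, stood at 13.30, 12.96 and 13.10 against at most 4.35 (10.26 ± 0.21). Svs5 stood at 13.36, 12.87 and 13.27 (9.78 ± 0.23). In these 3 genes the prostate samples lay within 1 unit of each other, as they did for Pbsn, Sbp, Msmb and Tgm4. Svs2 stood at 11.48, 10.68 and 11.59 (8.37 ± 0.16) by the probe set used here, and a second probe set gave a mean of 13.20 and a difference of 10.39.

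The remaining members were uneven among the 3 prostate samples, always lowest in sample 2 and highest in sample 3. Sva, the seminal vesicle antigen, stood at 7.95, 3.67 and 12.68, with sample 2 at the level of lung sample 4 (3.66), and the difference was 5.14 ± 0.69 (adjusted p = 3.3e-07). Svs3b stood at 8.32, 3.73 and 12.24, with sample 2 below lung sample 3 at 5.63 (5.28 ± 0.70, adjusted p = 2.75e-07). Svs3a stood at 9.56, 6.29 and 12.22 (6.27 ± 0.48). The order of samples was the same for all 3 genes. Svs6 stood at 10.92, 9.75 and 12.76 (8.45 ± 0.27). Ceacam10, a cell-adhesion-molecule relative found in seminal vesicle fluid, stood at 9.45, 7.90 and 12.59, and small intestine sample 3 reached 9.21 (5.22 ± 0.41). Its SD among the 3 prostate samples was 2.39. The SE and p-values of these uneven genes come from a spread shared by all 10 groups. They do not measure how far the 3 prostate samples lie apart. The mean level of the 9 genes was 10.90, 9.02 and 12.68 in the 3 prostate samples, against group means of 2.73 to 3.56 elsewhere. The prostate secretion list did not follow that order, with means of 10.93, 11.47 and 10.94. Whether seminal vesicle cells were among the sorted cells was not tested.

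The 6 Svs genes, unlike Pate4, Sva and Ceacam10, lie in a run on 1 chromosome. In RefSeq's order of protein-coding genes, Wfdc15b, Svs2, Svs3b, Svs4, Svs3a, Svs6 and Svs5 follow each other, and all 7 were called higher. Wfdc15b, which encodes a whey-acidic-protein inhibitor, stood at 11.98, 11.36 and 12.09 and reached 12.16 in kidney (5.37 ± 0.35). On its other side Wfdc15a had a difference of -0.13 ± 0.21. The next gene beyond Svs5 is Slpi, another protease inhibitor, whose difference was 0.26 ± 0.76. Beyond it Matn4 differed by 0.33, Sdc4 by -0.02, Sys1 by 0.68 and Dbndd2 by -0.45. Pigt, an enzyme subunit of GPI anchor attachment further along, was lower by the call (-1.37, adjusted p = 0.000253). Svs3a and Svs3b, whose promoters above are near copies, have similar transcripts too, so their probe sets may each read both.

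**Figure D2:**
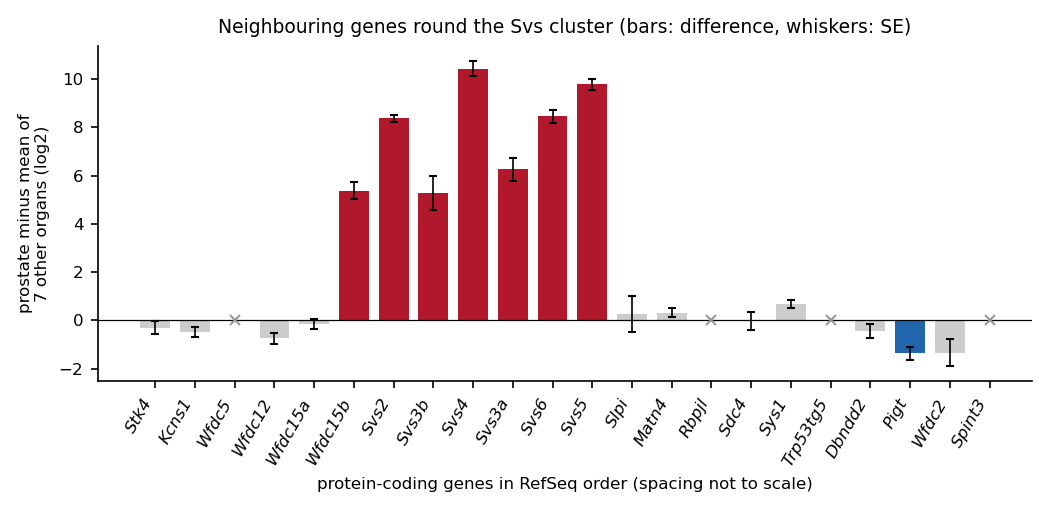
Difference of prostate cells from the mean of the other 7 organs (log2, with SE) for protein-coding genes in RefSeq order around the seminal vesicle secretory genes, with positions given by order only. Crosses mark genes not tested. The 7 adjacent genes from Wfdc15b to Svs5 stand at 5.28 to 10.43, and their neighbours on each side, Wfdc15a and Slpi, at -0.13 and 0.26.

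Among the 20 largest increases whose samples did not overlap there were further secreted or membrane proteins. Pate14, of the same family as Pate4, stood at 12.29, 11.67 and 11.86 (8.99). Defb1, a beta-defensin of epithelial surfaces, stood at 12.35, 12.37 and 11.84 (7.38 ± 0.55), with kidney close by at a mean of 10.74. Spink8, a Kazal-type inhibitor, stood at 9.55, 10.47 and 11.53 (7.16 ± 0.26). Atp12a, the non-gastric proton-potassium pump, stood at 10.17, 10.50 and 10.14 against at most 3.75 elsewhere (7.17 ± 0.16). Atp6v1c2, a subunit of the vacuolar proton pump, stood at 9.76, 10.38 and 9.92 (6.62). Glb1l3, a relative of beta-galactosidase, differed by 8.18 and Gsdma, a pore-forming gasdermin, by 7.62. The transcript 9530002B09Rik stood at 13.29, 13.54 and 13.14 (9.40) and reached 9.31 in salivary gland sample 3.

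Transcription factors of the prostate were high as well. Of 11 tested, 8 were higher and 1 was lower, with a median difference of 2.59. Hoxb13, the homeobox gene of the caudal body and prostate, stood at 10.82, 11.39 and 10.76 against at most 4.33 in the other 25 (7.51 ± 0.18, adjusted p = 5.56e-28). Gata3 stood at 10.18, 9.82 and 10.02 against at most 7.24 (6.35 ± 0.33). Gata2 stood at 10.36, 10.27 and 10.20, just above lung sample 1 at 10.07 (4.41 ± 0.52). The prostate samples lay above all others in these 3 genes, with no gap to speak of in Gata2. Foxa1 stood at 11.06, 11.50 and 10.88 and overlapped stomach, whose mean was 11.07 (4.02 ± 0.60). Spdef, an ETS factor of secretory epithelium, stood at 8.0, 8.54 and 7.78 and overlapped stomach too (2.59 ± 0.22).

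Hoxd13, another homeobox gene of caudal structures, differed among the prostate samples, at 8.42, 5.59 and 5.33, all above the highest other sample at 3.23 (3.57 ± 0.29). Hoxa10, a homeobox gene of the reproductive tract, stood at 5.45, 6.29 and 5.95 and was exceeded by uterus at up to 8.29 (1.46 ± 0.22). Sox9 was called higher by 1.33 ± 0.50 (adjusted p = 0.0443), but lost the call in 19 of 48 alternative settings. Creb3l4 was called lower by 1.16, lost the call in 5 settings, among them without prostate sample 1, and had a difference of 0.48 when only samples of title number 250 or below were used. Klf5 (-0.12) and Etv1 (0.01) did not pass the test.

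**Figure D3:**
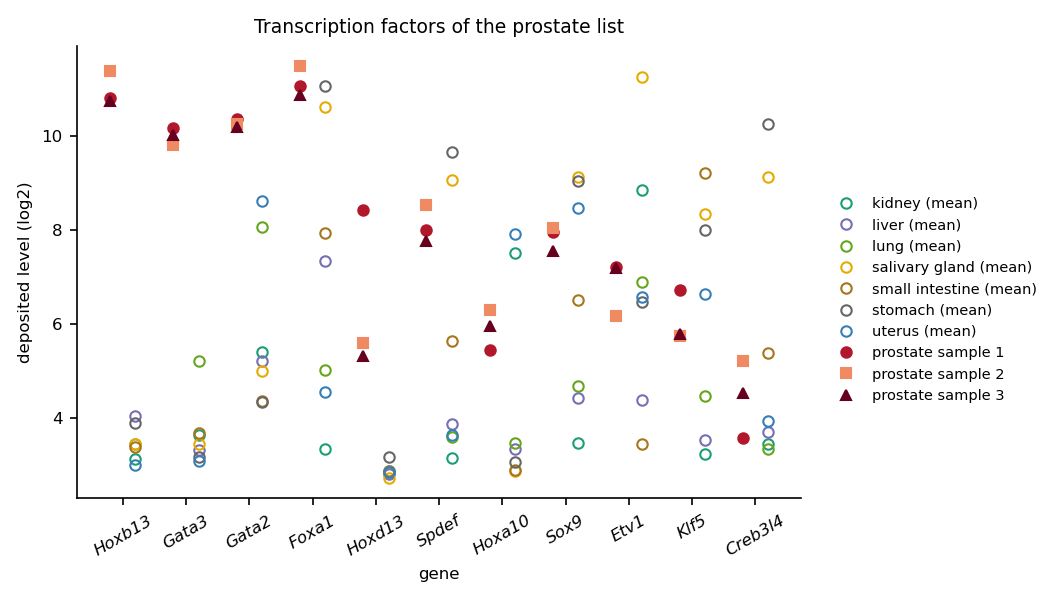
Log2 level of the 11 tested prostate transcription factors, with filled symbols for the 3 prostate samples and open circles for the means of the 7 other organs. The prostate samples of Hoxb13 stand at 10.76 to 11.39, far above every organ mean, while those of Foxa1 lie around the stomach mean of 11.07.

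Genes that androgen receptor is known to drive were raised in part. Of 20 tested, 9 were called higher. Fkbp5, a co-chaperone of steroid receptors, stood at 10.11, 10.89 and 9.56 against 5.56 to 8.67 in the other samples (3.21 ± 0.30, adjusted p = 1.83e-10). Slc45a3, the transporter known as prostein, stood at 9.53, 10.40 and 9.06 against 3.74 to 8.33 (3.36 ± 0.38). Both had no overlap, with sample 2 the highest of the 3. Eaf2, an elongation-factor partner, stood at 6.81, 7.85 and 7.53 (2.88 ± 0.18), and Gnmt, a glycine methyltransferase abundant in liver, at 9.42, 9.80 and 8.98 (2.20 ± 0.46). Smaller increases were called for Zbtb10 (2.18), Sgk1 (1.93), the membrane protease Tmprss2 (1.92), Ell2 (1.30) and Tpd52 (1.16). The Sgk1 call was lost against the samples of title number 250 or below, that of Tmprss2 without liver and lung in the reference, and that of Tpd52 without prostate sample 1 or 2. Ndrg1 had a difference of -1.33 (adjusted p = 0.082). Against single organs the count varied: 10 of the 20 were higher than in each of lung, liver and small intestine (18.9%, 21.3% and 16.6% of all genes), and 2 were higher and 2 lower than in salivary gland (9.73% and 7.05% of all), the other exocrine gland of the set.

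The machinery that folds and exports secreted proteins was also above the organ mean. Of 30 tested genes 15 were higher and 1 was lower, with a median difference of 0.94 against 0.036 over all genes. Without prostate sample 1, 2 or 3 the higher genes numbered 14, 10 and 15. Against salivary gland 9 were higher and 3 were lower (9.73% and 7.05% of all genes). Against kidney 20 were higher and 0 were lower (17.8% and 15.7%). Agr2, a disulfide isomerase of mucus and gland cells, stood at 11.86, 12.18 and 11.54, below stomach at up to 13.36 (4.59 ± 0.56). Sdf2l1, a chaperone cofactor of the endoplasmic reticulum, stood at 10.28, 11.15 and 10.26, above all 25 others, which reached 9.68 (2.15 ± 0.27). Creld2, a secreted product of endoplasmic reticulum stress, stood at 11.96, 12.19 and 10.91 and overlapped liver (2.38 ± 0.30). The stress factor Ddit3 was called higher by 1.74, the isomerases Pdia6 and Pdia4 by 1.89 and 1.50, the chaperone Hyou1 by 1.33, and the sensor Ern1 by 1.34. The Ern1 call was lost with the mean of all probe sets of a gene. That of Hyou1 was lost against the samples of title number 250 or below. The major chaperone Hspa5 (0.85) and the secretory-cell factor Xbp1 (0.03) were not called. The list's mean level was 10.21, 10.45 and 9.93 in prostate and between 8.53 and 9.86 in the other organs.

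Semen is rich in polyamines, zinc and citrate, and genes of these pathways gave a mixed picture. Of 13 polyamine genes 4 were higher and 1 was lower (10.4% and 7.29% of all genes). Srm, the synthase of spermidine, stood at 9.95, 10.41 and 9.53, above all 25 others at up to 9.05 (1.86 ± 0.28, adjusted p = 2.37e-06). Arg2, a mitochondrial arginase, stood at 9.05, 9.65 and 8.91, below small intestine at up to 12.29 (3.39 ± 0.49). The oxidase Smox (1.28) and the transporter Atp13a2 (1.25) were higher, the liver arginase Arg1 was lower (-2.43), and Odc1, the first enzyme of polyamine synthesis, had a difference of 0.79 (adjusted p = 0.064). The Atp13a2 call was lost without any 1 of the prostate samples, and that of Arg1 without liver in the reference. Of 21 zinc and citrate genes 7 were higher and 2 were lower (10.4% and 7.29% of all genes). Without any 1 of the prostate samples 5 were higher, the calls of the zinc transporters Slc39a6 and Slc39a8 being lost. Mt3, a metallothionein best known from brain, stood at 7.74, 7.08 and 6.54 against at most 4.17 (3.51 ± 0.18). The zinc exporter Slc30a2 stood at 8.90, 8.44 and 7.40 and overlapped kidney at up to 8.40 (3.70 ± 0.26). Mt1, the common metallothionein, stood at 13.49, 13.61 and 13.56, barely above lung sample 2 at 13.47 (1.55 ± 0.31). Aco1, the cytosolic aconitase that consumes citrate, was lower (-1.51), a call lost with the mean of all probe sets of a gene.

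Inhibitors of secreted proteases were raised in part. Of 14 inhibitors of the Spink and Wfdc families 7 were higher and 2 were lower. Spink5, an inhibitor of kallikrein-type proteases, stood at 8.96, 10.64 and 8.62 against at most 3.41 (6.60 ± 0.20, adjusted p = 1.49e-24). Wfdc3 stood at 9.48, 11.67 and 10.14 against at most 7.21 (6.26 ± 0.61). Spink10 differed among the samples, at 4.30, 7.24 and 8.72 (4.04), and the sample that was highest for Sva was highest here as well. Of 13 kallikrein proteases 9 were called lower (7.29% of all genes). Salivary gland, where 11 were higher than in prostate, enters the reference mean. Klk1b26, for example, stood at 3.12, 2.56 and 2.55 in prostate with a median of 2.75 in the other 25, but reached 13.30 in salivary gland. Klk1 was different, at 3.04, 3.35 and 2.98 with a median of 10.24 in the others (-6.05 ± 0.86). Of 7 transglutaminases Tgm4 and F13a1 were higher and Tgm2 was lower. F13a1, the clotting factor subunit that macrophages also make, stood at 10.22, 10.37 and 11.93, and its call (3.43) was lost without prostate sample 3. Tgm2, the tissue transglutaminase, stood at 9.36, 7.42 and 7.39 (-1.19) and lost its call without sample 2 or 3.

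Channels and transporters of ions and water went both ways, with 5 of 22 higher and 7 lower (10.4% and 7.29% of all genes). Slc26a4, the anion exchanger pendrin, stood at 7.92, 9.31 and 7.40 against at most 7.37, in uterus (4.52 ± 0.38). Ano1, a calcium-activated chloride channel, stood at 10.50, 10.24 and 10.36, below salivary gland at up to 11.33 (3.15 ± 0.44). Slc12a2, the cotransporter that loads cells with chloride, stood at 11.94, 12.26 and 11.68 (2.06 ± 0.34). Cftr, the other main chloride channel of epithelia, stood at 2.77, 2.97 and 3.19, within the range of liver and lung, with a difference of -2.83 ± 0.41. Car12, a carbonic anhydrase, stood at 3.47, 2.87 and 3.12 with a median of 8.15 elsewhere (-4.15 ± 0.25). Car4 (-3.03) and the bicarbonate transporter Slc4a4 (-2.99) were lower as well. Prostate shared the low Cftr and Car12 levels with liver and lung, whose means were 2.99 and 3.07 for Cftr.

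Genes of epithelial junctions and identity were raised in part against the mean of the other organs. Of 21 junction and epithelial-identity genes 9 were higher and 2 were lower. The list's mean level was 8.55, 8.71 and 8.61 in prostate. It was 8.94 in salivary gland, 8.73 in small intestine, 8.56 in uterus and 8.55 in stomach. In kidney, liver and lung it was 7.01, 5.85 and 5.28. Against salivary gland 0 of the 21 were higher and 1 was lower (9.73% and 7.05% of all genes). Against lung 16 were higher and 1 was lower (18.9% and 9.09%). Claudins seal the space between epithelial cells. Cldn8 stood at 10.40, 10.31 and 10.04, equal to the highest salivary gland sample at 10.38 (4.28 ± 0.34). Cldn4 stood at 11.20, 10.43 and 9.89 and overlapped uterus at up to 11.14 (3.98 ± 0.47). Ehf, an ETS factor of epithelial cells, stood at 10.72, 10.85 and 10.79 (3.42 ± 0.60). Cldn2 (-3.15) and Cldn18 (-1.67), the claudins of leaky tubules and of stomach and lung, were lower, the latter not without prostate sample 2.

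Markers of the prostate's cell layers were raised in part, with 4 of 7 genes of distal luminal cells called higher (Pbsn, Hoxb13, Mme and Krt18). Krt18, a luminal keratin, was higher by 2.12, and Krt19 stood at 11.42, 11.64 and 11.60 (3.12 ± 0.65). Of 8 genes of proximal luminal cells, those near the urethra, 3 were higher: Krt19, Krt4 at 5.75, 7.09 and 7.15 (2.71 ± 0.28), and Clu (1.63). The other 5 were not called, and the median difference of the list was 0.36. Among these 5, Wfdc2 had a difference of -1.33 (limma adjusted p = 0.0681). Of 9 basal genes 3 were higher and 2 were lower. The basal keratin Krt15 stood at 8.01, 6.56 and 7.07 (3.28 ± 0.40), Krt14 at 7.73, 5.12 and 4.07 (1.53) and Krt5 at 6.81, 5.36 and 4.82 (1.11). Sample 1 was the highest in all 3, and the Krt14 and Krt5 calls were lost without it. The Krt5 call was also lost without stomach sample 1. The lower genes were the integrin Itga6 (-1.35), whose call was lost in 33 of 48 settings and without any 1 of the prostate samples, and the laminin chain Lamb3 (-1.29), whose call was lost without sample 2 or 3. Trp63, the defining basal transcription factor, lay between 3.17 and 3.34, under the filter value of 4.063. Of 7 neuroendocrine genes 2 were higher. They were Scg2, a secretory granule protein, at 6.91, 5.59 and 5.65 (2.18 ± 0.35), and the enolase Eno2 at 4.80, 3.64 and 4.34 (1.28 ± 0.17), both overlapping other organs. Chga, the defining neuroendocrine marker, stood at 3.98, 3.49 and 3.38, under the filter value. Of 5 tested urothelial genes 1, Krt20, was lower (-2.13) and 2 were higher: Upk1b stood at 8.07, 8.36 and 8.37 against at most 5.40 (4.70 ± 0.23), and Upk1a at 4.63, 6.71 and 4.20 (1.84), while Upk3a lay under the filter. Of 6 epididymis genes measured 5 lay under the filter.

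**Figure D4:**
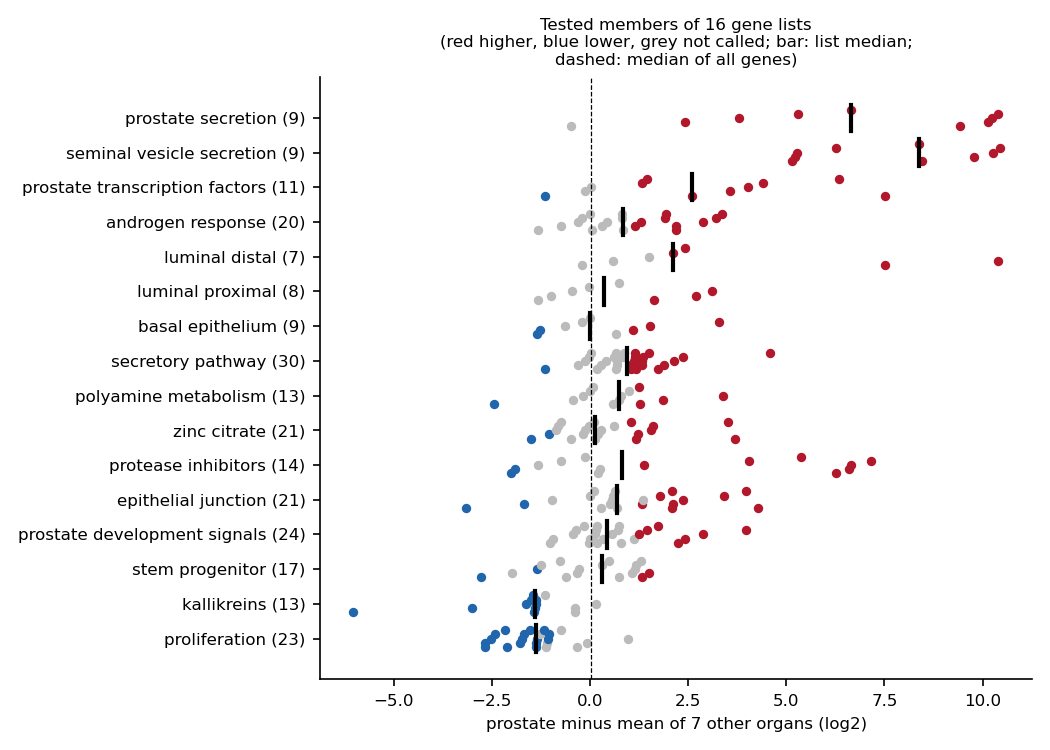
Difference of prostate cells from the mean of the other 7 organs (log2) for each tested member of 16 gene lists, with the number tested in brackets: red points were called higher, blue lower, grey neither, bars are list medians and the dashed line is the median of all genes. The secretion lists lie to the right (medians 6.66 and 8.37) and the proliferation list to the left (-1.38).

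Signals and progenitor genes showed a few large differences. Of 24 developmental signal genes 7 were higher (10.4% of all genes). Egf stood at 10.03, 9.89 and 9.75, below kidney and salivary gland at means of 12.39 and 12.48 and above the other 5 organs (3.96 ± 0.18). Wnt4 stood at 7.79, 7.97 and 7.79, near salivary gland (2.43 ± 0.36), and Bmp7 was higher by 2.25. Sfrp2, a secreted Wnt modulator, stood at 8.50, 6.39 and 5.43, highest in sample 1 like the fibroblast genes described below (2.87 ± 0.37). Of 17 stem and progenitor genes 2 were higher (Axin2 by 1.50 and Sox9) and 2 were lower, shares near the 10.4% and 7.29% of all genes. The lower genes were Itga6 and Lrig1, a brake on growth factor receptors, with a difference of -2.78, a call lost against the samples of title number 250 or below. Of 21 genes recurrently altered in prostate cancer 3 were higher, a share near the 10.4% of all genes: Foxa1, Tmprss2 and Myc (1.42). Of 15 steroid receptor and metabolism genes 1 was higher and 5 were lower (10.4% and 7.29% of all genes). The higher one was Sult1e1, the sulfotransferase that inactivates estrogen, at 7.34, 7.26 and 6.10 against at most 5.19 (3.73 ± 0.93, adjusted p = 0.00228).

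Proliferation genes were lower than in the average organ. Of 23 tested 16 were called lower, with a median difference of -1.38. Mki67, a marker of cycling cells, stood at 4.44, 4.32 and 3.94, against organ means of 9.52 in small intestine, 9.16 in stomach and 8.0 in uterus and 4.14 in kidney (-2.66 ± 0.56, adjusted p = 0.00041). The list's mean level was 4.64, 4.58 and 4.54 in prostate, 8.45 in small intestine, 7.72 in stomach, 6.96 in uterus, 5.30 in lung, 4.88 in salivary gland, 4.37 in liver and 4.30 in kidney. Against single organs, 21 of the genes were lower than in small intestine (14.5% of all genes), 21 than in uterus (12%) and 20 than in stomach (8.9%), but 3 than in lung (9.09%) and 1 than in kidney (15.7%). Going the other way, 3 were higher than in kidney (17.8% of all genes), 3 than in liver (21.3%) and 1 than in lung (18.9%). The prostate level thus lay between those of liver and salivary gland. Of 16 immediate early genes, which dissociation of tissue can induce, 5 were higher (10.4% of all genes), led by Fosb (2.33) and Egr2 (2.05). The count ran from 3 to 8 without each prostate sample in turn. The mean level of these genes was 10.69, 10.02 and 10.80 in prostate, 11.36 in salivary gland, 11.02 in uterus and 10.33 in lung. It was 9.46 in stomach, 8.17 in liver, 8.10 in small intestine and 7.66 in kidney. Against salivary gland 0 of the 16 were higher and 3 were lower (9.73% and 7.05% of all genes). Against kidney 14 were higher and 0 were lower (17.8% and 15.7%). Of 9 heat shock genes Hspb1 (3.20) and Hsph1 (1.40) were higher, against 10.4% of all genes.

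Decreases with no overlap were few. Among the 15 largest decreases with no overlap, Nectin3, a cell adhesion protein, stood at 4.81, 4.45 and 3.64 against at least 5.11 elsewhere (-4.07 ± 0.51, adjusted p = 9.96e-08). Meis2, a homeobox cofactor, stood at 4.38, 3.42 and 3.90 (-3.16), and Ttyh2, a membrane protein, had a difference of -3.64. Cat, the gene of catalase, which breaks down hydrogen peroxide, stood at 7.93, 8.16 and 8.34 against 8.65 to 12.32 in the other samples (-2.06 ± 0.27). The other decreases included Nr0b2, a repressor of nuclear receptors (-2.43), Kalrn (-2.30), the death ligand Tnfsf10 (-1.95) and Lpcat3 (-1.09). The Tnfsf10 call was lost without prostate sample 1 or 2.

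Taken organ by organ, prostate cells had the fewest called genes against salivary gland. In the correlation of levels they were about as similar to uterus as to salivary gland. Called genes in either direction numbered 2201 against salivary gland (16.8%), 2699 against stomach (20.6%), 2775 against uterus (21.2%), 3672 against lung (28%), 4087 against small intestine (31.2%), 4132 against liver (31.5%) and 4404 against kidney (33.6%). Genes higher in prostate were 9.13% of all against uterus, 11.7% against stomach and 17.8% against kidney, and genes lower were 10.2% against liver. Group size, from 2 samples in stomach to 5 in liver, also affects these counts. With 1 sample left out they ran from 1817 to 2170 for salivary gland, 1940 to 2520 for stomach and 2084 to 2790 for uterus. In the other settings they ran from 1810 to 2881, 2239 to 2969 and 2325 to 3384, so the ranges of these organs overlap. The spread within organs differed: the median SD of a gene was 0.158 in salivary gland, 0.139 in kidney, 0.296 in prostate, 0.541 in liver and 0.675 in lung. Across the tested genes, which are not independent, the correlation of group means with prostate was 0.856 for uterus, 0.851 for salivary gland, 0.817 for lung, 0.794 for stomach, 0.726 for small intestine, 0.715 for kidney and 0.702 for liver. Requiring a difference of at least 1 from each of the 7 organs with the largest of the 7 p-values adjusted, 1.31% of the tested genes were higher in prostate. The 10 with the largest measured gap to the nearest organ were Msmb, Pate4, Pate14, Pbsn, Sbp, Svs2, Svs4, Svs5, Svs6 and Tgm4, with gaps of 8.18 to 9.74. The nearest organ mean of these genes lay between 2.81 and 4.15, near or under the filter value of 4.063, so the gaps are lower bounds and have no order among the genes. By the same rule 3 genes were lower (0.0229%): Tmem268, Tbcel and Tstd3.

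The 3 prostate samples differed from each other in a few programmes. Over all genes samples 1 and 2 correlated at 0.962, 2 and 3 at 0.959, and 1 and 3 at 0.944. Genes at least 2 units above both other prostate samples numbered 86 in sample 1, 6 in sample 2 and 115 in sample 3. Sample 1 alone was high in some transcripts that other organs hold: 2310057J18Rik at 9.42, 2.56 and 2.63 (salivary gland mean 12.94), Prol1 at 9.34, 3.76 and 3.52, and the lung surfactant gene Sftpc at 8.06, 3.11 and 3.18. Sample 3 was highest in Sva, Svs3a and Svs3b and in Dnase2b, an acid nuclease gene, at 3.63, 2.83 and 8.93. Serpina1f, a serpin, stood at 4.33, 7.15 and 9.50 (4.27 ± 0.40). Leaving out sample 1, 2 or 3 gave 1253, 1162 and 1309 genes higher and 711, 730 and 810 lower.

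Markers of other cell types moved with the samples too. In bulk RNA, fewer cells of a type and less RNA per cell cannot be told apart. Of 13 macrophage genes 3 were higher than in the mean of the other organs (Mrc1, Cd14 and Cd68), against 10.4% of all genes. The list's mean level was 7.92, 8.39 and 9.92 in the 3 prostate samples. Other organs ran from 4.81 in kidney to 11.02 in uterus. Mrc1, the mannose receptor, stood at 9.91, 10.28 and 11.94 (2.54 ± 0.60). Of 14 fibroblast genes 5 were higher (Mgp, Dcn, Thy1, Col3a1 and Vim), and the list's mean level ran the other way, at 8.06, 7.06 and 6.48, between 4.22 in kidney and 9.36 in uterus. Dcn, the gene of the matrix protein decorin, stood at 11.59, 10.91 and 9.99 (3.06 ± 0.67), and Mgp, matrix Gla protein, at 12.45, 11.14 and 9.52 (3.76 ± 0.36). Without sample 1 the fibroblast count was 2 of 14, the calls of Thy1, Col3a1 and Vim being lost. Without sample 3 the macrophage count was 1 of 13, and against the samples of title number 250 or below the Mrc1 and Dcn calls were lost. Sample 3 was thus highest in macrophage and seminal vesicle genes and sample 1 in fibroblast and basal genes. The part of these cells in the differences above was not tested. Of 14 endothelial genes 2 were lower (7.29% of all genes), a count that was at most 1 without any 1 of the prostate samples. The mean level of that list was 4.81, 4.75 and 5.06 in prostate, within the range of small intestine (3.85), stomach (4.65), salivary gland (5.25), uterus (5.51) and kidney (5.59), and it was 7.83 in liver and 8.82 in lung.

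**Figure D5:**
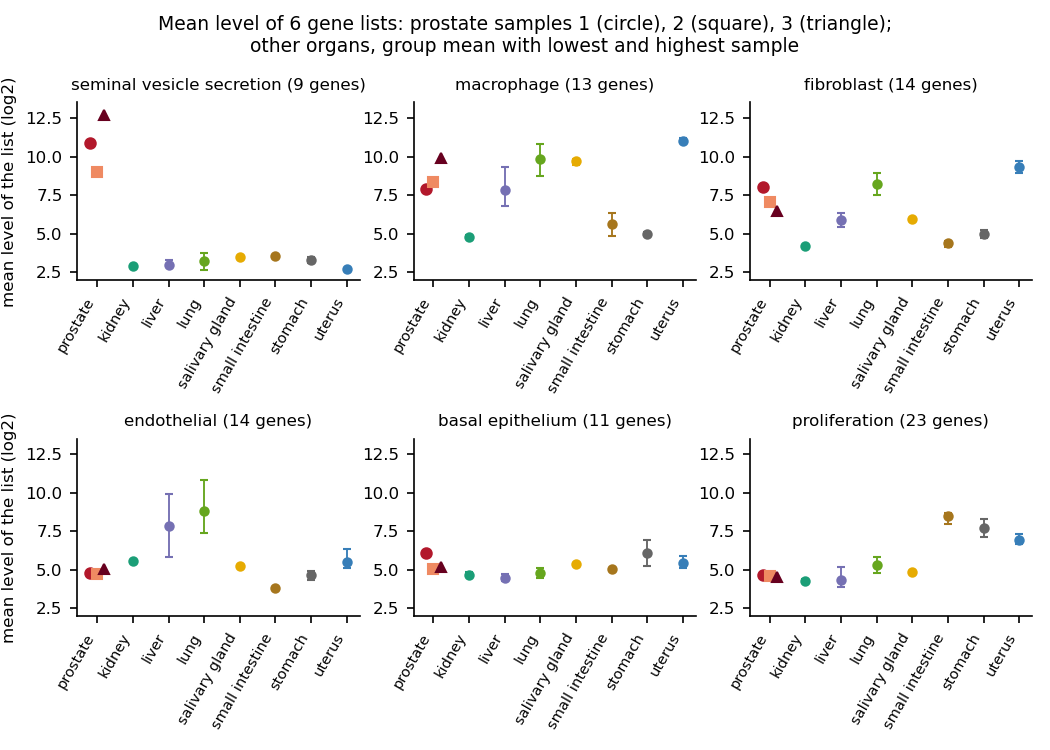
Mean log2 level of 6 gene lists, shown for each prostate sample and, for the other organs, as the group mean with its lowest and highest sample. In prostate the seminal vesicle list runs from 9.02 to 12.68 and the macrophage list from 7.92 to 9.92, while the proliferation list stays between 4.54 and 4.64.

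Markers of the 7 other organs were counted against a mean to which those organs contribute. Over all genes 7.29% were lower. Called lower were 6 of 9 hepatocyte genes, 7 of 8 kidney tubule genes, 1 of 7 lung epithelial genes, 7 of 10 salivary gland genes, 5 of 8 enterocyte genes, 9 of 11 gastric genes and 4 of 10 uterine genes. Emx2, a homeobox gene of the urogenital tract in the uterine list, was higher by 1.70. In sample 1 the mean of the lung list was 5.10, against 3.73 and 3.68 in the others, and that of the salivary list 4.20, against 3.37 and 3.53.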

How the data were processed

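The values are log2 expression levels per probe set, as deposited by the authors in 1 table for all samples. They were made with Partek 6.6, per the submitters' processing notes. Background correction and normalization: not given in the sources used here. No further normalization was applied. Probe sets with 1 gene symbol (28898 of 45141, for 17098 genes) were kept, and a gene was read from its probe set with the highest mean over the 40 sorted samples. A gene was tested where the mean of at least 1 of the 8 organ groups exceeded the 40th percentile (4.063), which left 13113. limma 3.58.1 in R 4.3.3 (lmFit, contrasts, eBayes with an intensity trend) was fitted over all 40 sorted samples in 10 groups; liver cells from treated and newborn mice entered for the spread only. P-values were Benjamini-Hochberg adjusted within each comparison. The procedure was tested on simulated data. Members and gene lists were chosen with earlier results of these data known. Named genes are Prom1, list members, the 20 largest increases and 15 largest decreases without overlap, the 10 leading genes against every organ and the 8 most variable in prostate, beside genes next to the Svs genes and the 2 label-check genes. The number of arrays limits the precision. Figures were drawn with matplotlib 3.10.9.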

Additional observations from a re-analysis of the deposited data

Results flagged for a closer look

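Among groups of 4 or 5 samples, 4 measures had 1 sample far from the others, of 16 examined; chance flags about 1 in 20. Prom1 in lung sample 3 stood at 5.30, against 6.60 to 6.79 in the other lung samples. The 75th percentile of liver sample 1 was 6.54, against 6.14 to 6.23. In uterus sample 4 the array median was 3.86, against 3.93 in each of the others, and the actin 3' minus 5' difference was 0.41, against 0.89 to 0.99. The prostate group, with 3 samples, is too small for this check.

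Probe sets with no gene or several genes in the annotation were not part of the comparisons. Of 16139 such probe sets 8438 passed the filter, and in 123 of these (1.46%) all 3 prostate samples lay above all 25 others with a difference of at least 1. In 21 of them the difference was at least 4, and in 10 probe sets the prostate samples lay below all others.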

How the results depend on the processing

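The counts of higher and lower genes stayed within 1.5 times those reported in 28 settings that left out 1 sample and 20 others. The count of genes higher than in each organ did so in the same 28 and 10 others. The genes behind the counts were less stable. Leaving out prostate sample 1, 2 or 3 kept 1139, 1082 and 1168 of the 1362 higher genes. It kept 654, 660 and 705 of the 956 lower genes. Genes higher ran from 1162 to 1414 when 1 sample was left out and from 1116 to 1608 otherwise, genes lower from 711 to 1019 and from 767 to 1180, and genes higher than in each organ from 146 to 187 and from 130 to 189. The count of genes lower than in each organ, 3, became 1 with the mean of all probe sets of a gene, 7 with array weights, and 1 to 5 when 1 sample was left out (1 without prostate sample 1 or stomach sample 2, 5 without lung sample 3). Of 234 named genes that were called, 138 kept the call in every setting and 96 lost it at least once. The direction turned in 4: Col3a1 (-0.48 without probe sets whose names end in _x_at, _s_at or _a_at), Slc5a2 (0.031 without kidney), Creb3l4 (0.48) and Wfdc18 (0.081), both with samples of title number 250 or below; the cause was not tested. No paired analysis was possible because the groups share no replicate numbers in the labels.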
